A study of Mus musculus with 4 samples.

Results

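The transcripts described here encode the insulin and insulin-like growth factor (IGF) pathway and its extension to mTOR, AMPK and glucose uptake. The list held 46 genes, chosen by name with earlier results of these data known. It covered ligands and receptors, IGF binding proteins, and insulin receptor substrates (IRS) with phosphatidylinositol 3-kinase (PI3K). It also covered AKT with glycogen and glucose-uptake proteins, the TSC and mTOR complexes, AMPK, and inhibitors with protein kinase C. All 46 were on the array, as part of 19751 named genes, and 42 of them were bright enough to be tested, as part of 13712 tested genes. The cells were C2C12 myoblasts, a mouse line of satellite cells from thigh muscle, on the third day of proliferation. Palmitate (0.1 mmol/l, 48 h) was added to medium with serum in 4 cultures, and 4 untreated control cultures received the same amounts of the carriers, ethanol and fatty-acid-free albumin. The sample label of the control cultures names 10% HS, while the methods name 5% FBS (foetal bovine serum) for both media, so that the medium of the control cultures, in amount and kind of serum, is not settled. RNA of 1 palmitate culture (cyanine-5) and 1 control culture (cyanine-3) was hybridised to each of 4 two-colour Agilent arrays of 1 slide, read in 1 scan, and the dyes were not exchanged, so that dye and palmitate cannot be told apart in any ratio.

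Insulin and the IGFs bind receptor tyrosine kinases, which phosphorylate IRS proteins and so bring PI3K to the membrane. The lipid made by PI3K recruits PDK1 and AKT; AKT then releases glucose transporter 4 vesicles, relieves the block on glycogen synthase and, through the TSC complex and the small GTPase Rheb, switches on mTOR complex 1 and its kinase S6K1. AMPK, the kinase that senses low cellular energy, acts against mTOR complex 1, and in muscle saturated fatty acids such as palmitate are known for blunting the insulin signal, largely through protein phosphorylation, which arrays of mRNA do not measure.

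At the mRNA level no gene of the pathway passed the test between palmitate and control cultures, and the ratios of the pathway were centred where those of all genes were. For each gene the value is the log2 ratio of palmitate over control on an array, read from its brightest tested probe, and the mean over arrays was tested against 0 with limma, with Benjamini-Hochberg adjustment over all 24169 tested probes. No member reached an adjusted p under 0.05, lower or higher, and 0% of all 13712 tested genes did in either direction. At an unadjusted p under 0.05, 6 of 42 members were lower with palmitate (14.3%), against 13.3% of all tested genes, and 4 of 42 were higher (9.52%), against 10.8% of all tested genes. The lower genes were Mlst8, Rps6kb1, Ptpn1, Gys1, Tsc2 and Pik3r2, and the higher genes were Igfbp5, Igf2r, Socs3 and Pik3ca. The median of the mean log2 ratios was 0.00 over the members and 0.00 over all tested genes, and the middle 50% of the means lay between -0.11 and 0.11 for the members and between -0.15 and 0.14 for all tested genes. These shares were near the background in both directions. The counts by direction changed with the dye normalization. With each array centred on its median in place of loess, 0 members were lower and 2 higher at an unadjusted p under 0.05. The median of the members was then 0.27 and that of all tested probes 0.18. The share of all tested genes was not computed under this centring, so these 2 counts have no background beside them. RNA was taken from whole cultures, in which fewer cells of a kind and less RNA per cell cannot be told apart.

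**Figure D1:**
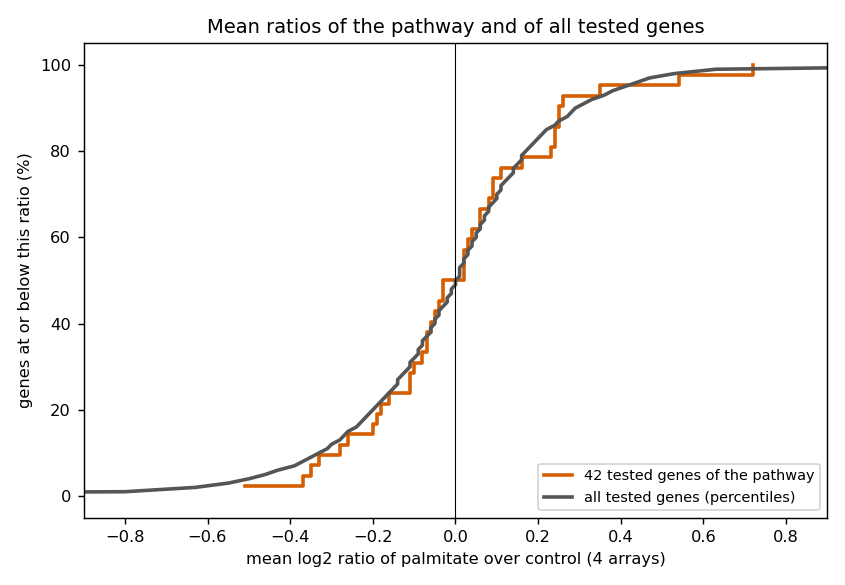
Cumulative share of genes (vertical axis, percent) at or below each mean log2 ratio of palmitate over control (horizontal axis), for the 42 tested genes of the pathway and for all 13712 tested genes as percentiles. The step line of the pathway runs along the line of all genes, both crossing 50% at about 0.00, and ends at -0.51 on the low side and 0.72 on the high side.

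The spread of the members was also that of the array as a whole. A mean fold of at least 1.6 in either direction, the size limit of the study, was reached by 1 of 42 members (2.38%), against 2.44% of all tested genes, and this was Igf2r. The mean log2 ratio was below 0 for 21 of 42 members (50%), against 49.8% of all tested genes. The ratio had the same sign on every array for 7 members on the low side (16.7%) and 5 on the high side (11.9%), against 16.9% and 15.7% of all tested genes, or for 12 members in either direction (28.6%), against 32.6%. For 37 of 42 members (88.1%) the 95% interval of the mean lay within a fold of 1.6 in both directions, against 84.9% of all tested genes. With 4 arrays, an exact two-sided sign-flip test of a single gene cannot go below p = 0.125.

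The quality of the arrays was as follows. Between 61.9 and 70.7% of the probes exceeded the background clearly in the palmitate channel, and between 57.6 and 64% did in the control channel, and precision was limited by there being 4 arrays. Replicate 1 stood apart from the other arrays: over the 24169 probes its log2 ratios correlated at 0.057, -0.16 and -0.16 with those of replicates 2, 3 and 4, whereas pairs among replicates 2 to 4 correlated at 0.68 to 0.77. The 1 probe for 28S ribosomal RNA had log2 ratios of 1.42 on replicate 1 and -2.49, -2.14 and -3.35 on replicates 2 to 4, and its part in the results was not tested. Myoblast markers (Myod1, Myf5, Des, Cdh15 and others) were well above background on all 4 arrays for 10 of 10 genes in the palmitate channel and for 9 of 10 in the control channel, with mean log2 ratios of -0.13 to 0.41. Of 4 macrophage markers on the array, 2 were so in the palmitate channel and 3 in the control channel, of 4 endothelial markers 2 in each channel, and of 6 adipocyte markers 2 in the palmitate channel and 1 in the control channel. The log2 of the summed signals of these lists was 14.08 to 15.83 in palmitate and 14.23 to 15.43 in control cultures (macrophage), 10.61 to 12.57 and 11.38 to 11.78 (endothelial) and 9.68 to 9.77 and 9.69 to 9.71 (adipocyte), and they overlapped for each list. Ptprc, the defining marker of leukocytes, was not above background on all arrays of either channel, and the part of these cells in the results was not tested.

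The 4 members with the lowest unadjusted p were Mlst8, Igfbp5, Rps6kb1 and Igf2r, and their promoters are shown to place them on the genome and to compare them. The sequences are the 250 bases before the RefSeq start of each gene (build GRCm38.p6), 5′ to 3′, with matches to the motifs searched in capitals.
Mlst8 promoter, chr17:24479079-24479328, minus strand: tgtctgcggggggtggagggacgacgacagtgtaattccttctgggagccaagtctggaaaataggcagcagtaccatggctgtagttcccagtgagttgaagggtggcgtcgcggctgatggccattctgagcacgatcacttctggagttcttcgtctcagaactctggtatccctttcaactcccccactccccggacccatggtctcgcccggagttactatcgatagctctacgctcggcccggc
Igfbp5 promoter, chr1:72874866-72875115, minus strand: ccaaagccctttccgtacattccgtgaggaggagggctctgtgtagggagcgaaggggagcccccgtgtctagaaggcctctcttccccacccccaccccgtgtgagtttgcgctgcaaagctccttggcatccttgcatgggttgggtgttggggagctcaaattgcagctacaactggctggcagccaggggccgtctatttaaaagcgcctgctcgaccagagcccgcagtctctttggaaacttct
Rps6kb1 promoter, chr11:86544808-86545057, minus strand: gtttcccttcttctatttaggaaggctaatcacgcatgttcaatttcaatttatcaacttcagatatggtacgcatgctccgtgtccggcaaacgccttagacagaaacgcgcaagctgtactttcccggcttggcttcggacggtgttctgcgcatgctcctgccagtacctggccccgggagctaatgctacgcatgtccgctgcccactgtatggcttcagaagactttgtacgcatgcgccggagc
Igf2r promoter, chr17:12769707-12769956, minus strand: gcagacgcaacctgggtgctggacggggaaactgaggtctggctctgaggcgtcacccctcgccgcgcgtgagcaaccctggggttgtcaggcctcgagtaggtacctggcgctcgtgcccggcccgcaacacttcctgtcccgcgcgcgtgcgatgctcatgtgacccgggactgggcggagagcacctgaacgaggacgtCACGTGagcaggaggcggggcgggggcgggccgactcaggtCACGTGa
The letters searched on both strands, in windows of 250 bases before to 50 bases after the start, were GTAAACA, bound by FoxO factors, which AKT inactivates, the E-boxes CACGTG and CAGCTG, and the direct repeat bound by PPAR factors, which fatty acids activate. The Igf2r promoter held CACGTG at 2 positions, -48 and -7 from the start, and the other 3 promoters held none of the motifs. Over the 55 promoters of the 42 members that matched the RefSeq table, CACGTG was found in 6 (10.9%: Igf2r, Igfbp2, Irs1, Irs2, Prkcd and Rheb), against 7.15% of all 32851 promoters. The FoxO letters were in 2 of 55 (3.64%, Akt1 and Stk11), against 3.65% of all, CAGCTG was in 6 (10.9%), against 16.3% of all, and the PPAR repeat was in 0 of 55, against 0.0396% of all. A match of letters is a description and not a binding site. The promoters of the members had a median GC content of 64.7%, against 52.7% of all promoters.

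Among ligands and receptors, Igf2r had the largest ratio, and the signalling receptors had mean ratios near 0 on their brightest probes. Igf2r encodes the cation-independent mannose 6-phosphate receptor, which carries lysosomal enzymes and clears IGF-2 from the cell surface without passing on its signal. Its normalised log2 signals were 11.02, 11.97, 11.44 and 11.66 in palmitate cultures 1 to 4, against 11.00, 10.65, 10.90 and 10.64 in control cultures 1 to 4. All 4 palmitate values lay above all 4 control values, by only 0.02 between palmitate culture 1 and control culture 1. The log2 ratios were 0.02, 1.31, 0.54 and 1.02 on replicates 1 to 4, a mean of 0.72 ± 0.57 (SD, n = 4 arrays) or 1.65-fold (95% interval 0.22 to 1.23 on the log2 scale; adjusted p = 0.141 from limma). Signals without overlap between groups were found for 1 of 42 members on the high side (Igf2r, 2.38%), against 5.49% of all tested genes, and for 3 of 42 on the low side (Mlst8, Rps6kb1 and Ptpn1, 7.14%), against 8.39% of all tested genes.

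Insr, the insulin receptor, had log2 signals of 7.90, 8.30, 8.43 and 8.34 in palmitate cultures and 8.29, 8.29, 8.35 and 8.33 in control cultures. On this probe palmitate culture 1 was the low one, and the other palmitate cultures lay at or near the control values. Its log2 ratios were -0.39, 0.01, 0.07 and 0.01, a mean of -0.07 ± 0.21 (SD, n = 4). A second probe averaged 0.13 ± 0.39, with -0.37 on replicate 1 and 0.26, 0.56 and 0.07 on replicates 2 to 4. On that probe palmitate cultures 2 to 4 lay above every control, and the mean without replicate 1 was 0.30 (adjusted p = 0.118 from limma). Igf1r, the receptor through which both IGFs drive myoblast growth, had log2 signals of 11.69, 11.76, 11.41 and 11.66 in palmitate cultures and 11.83, 11.73, 11.70 and 11.71 in control cultures. The groups overlapped, with palmitate culture 3 the low one, and the mean log2 ratio was -0.11 ± 0.14 (SD, n = 4; ratios -0.14, 0.03, -0.29 and -0.05). Igf1, the ligand that myoblasts also make for themselves, had a mean log2 ratio of 0.06 ± 0.23 on its brightest probe and 0.06 to 0.09 over its 4 probes. Its single clearly positive value, 0.38, came from replicate 1.

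Igf2, the growth factor that C2C12 cells are known to make as they differentiate, was not tested, since it was well above background in 3 of 4 palmitate cultures and 0 of 4 control cultures. Its log2 signals were 7.23, 7.13, 7.08 and 7.17 in palmitate cultures and 7.14, 7.16, 7.15 and 7.17 in control cultures. The groups overlapped at the level of the dimmest measurable probes, and no fold is given. Prkcq and Grb10 were above background in 0 cultures of either group, and Prkce in 2 of 4 palmitate and 2 of 4 control cultures, so these 3 were not tested either. Prkcq and Prkce encode protein kinase C isoforms linked to lipid-induced insulin resistance, and Grb10 an adaptor that restrains the insulin receptor.

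**Figure D2:**
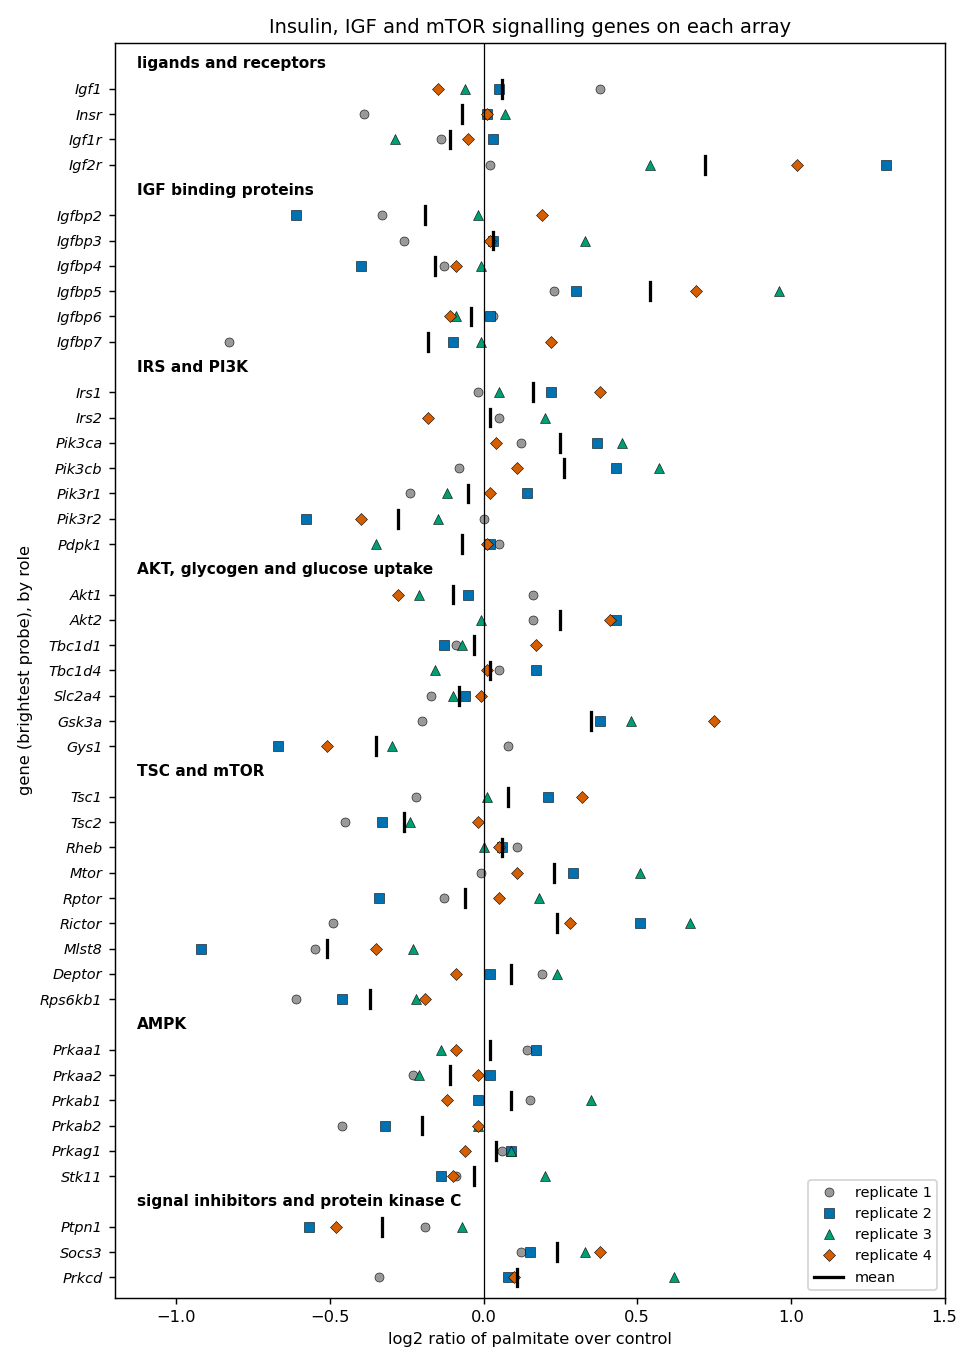
Log2 ratio of palmitate over control (horizontal axis) of the 42 tested genes, by role (vertical axis), with 1 marker for each array and a bar at the mean. Igf2r and Igfbp5 lie farthest to the right with means of 0.72 and 0.54, Mlst8 farthest to the left with -0.51, and the grey circles of replicate 1 often lie away from the others, as for Rictor, Gsk3a and Igfbp7.

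The IGF binding proteins, secreted carriers that set how much IGF reaches its receptor, included the largest ratio after Igf2r. Igfbp5, the binding protein most tied to muscle differentiation, had log2 signals of 13.46, 13.94, 14.25 and 13.73 in palmitate cultures, against 13.22, 13.63, 13.29 and 13.05 in control cultures. It was higher with palmitate on 4 of 4 arrays, although the lowest palmitate culture (13.46) lay below the highest control culture (13.63). The log2 ratios were 0.23, 0.30, 0.96 and 0.69, a mean of 0.54 ± 0.34 (SD, n = 4) or 1.46-fold (adjusted p = 0.128 from limma). Of 8 differentiated muscle markers 5 were well above background on all arrays in each channel, with mean log2 ratios of -0.08 to 0.32, and at an unadjusted p under 0.05 palmitate was higher for 2 of them and lower for 0. Of the 10 myoblast markers 3 were higher and 0 lower, while 10.8% of all tested genes were higher, and the part of these markers in the value of Igfbp5 was not tested. Igfbp2 had 2 bright probes that differed in size: the brighter averaged -0.19 ± 0.35 with ratios of -0.33, -0.61, -0.02 and 0.19, and the other -0.42 ± 0.30 with ratios of -0.31, -0.88, -0.25 and -0.26 (adjusted p = 0.148 from limma). Igfbp4, which holds IGF away from cells until it is cleaved, was below 0 on 4 of 4 arrays with a mean of only -0.16 ± 0.17. Igfbp3, Igfbp6 and Igfbp7 had means of 0.03, -0.04 and -0.18. The value of Igfbp7 rested on replicate 1, where its ratio was -0.83, while replicates 2 to 4 averaged 0.04.

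Of the IRS and PI3K genes, the adaptors for the receptors had ratios close to 0 and the PI3K subunits ran in both directions. Irs1, the main docking protein of the insulin receptor in muscle, had log2 signals of 13.33, 13.50, 13.36 and 13.17 in palmitate cultures and 13.36, 13.28, 13.31 and 12.79 in control cultures. The groups overlapped, control culture 4 was the low one, and the mean ratio was 0.16 ± 0.18 (SD, n = 4; ratios -0.02, 0.22, 0.05 and 0.38), with -0.10 on a second probe. Irs2, measured on 3 arrays because its spot on replicate 2 was marked as an outlier by the scanner software, had a mean ratio of 0.02 ± 0.19 (SD, n = 3).

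Pik3ca, the catalytic subunit p110 alpha that serves the insulin receptor, had log2 signals of 9.07, 9.44, 9.47 and 9.35 in palmitate cultures, against 8.95, 9.07, 9.02 and 9.30 in control cultures. It was higher with palmitate on 4 of 4 arrays (0.12, 0.37, 0.45 and 0.04), but the groups overlapped and the mean was only 0.25 ± 0.20 (SD, n = 4; adjusted p = 0.219 from limma). Pik3cb, the p110 beta subunit, had a like mean of 0.26 ± 0.30, with replicate 1 at -0.08. The regulatory subunit gene Pik3r2 (p85 beta) ran the other way: its log2 signals were 11.40, 10.81, 11.15 and 10.84 in palmitate cultures and 11.40, 11.39, 11.30 and 11.24 in control cultures. Palmitate culture 1 was equal to its control and the other 3 palmitate cultures lay below every control, giving ratios of 0.00, -0.58, -0.15 and -0.40 and a mean of -0.28 ± 0.26 (SD, n = 4; adjusted p = 0.222 from limma). Pik3r1, the p85 alpha subunit, averaged -0.05. Pdpk1, which encodes PDK1, the kinase that activates AKT, gave 3 probes with means of -0.07, -0.47 and 0.13, the widest difference between probes of 1 gene among the members. The probe at -0.47 had ratios near 0 on replicates 1 and 3 (0.01 and 0.05) and far lower ones on replicates 2 and 4 (-0.91 and -1.02).

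Among the genes of AKT, glycogen and glucose uptake, Akt1 and the transporter gave small ratios and the glycogen genes larger ones. Akt2 lay between them in size. Akt1 had log2 signals of 14.83, 14.61, 14.46 and 14.31 in palmitate cultures and 14.67, 14.66, 14.67 and 14.59 in control cultures. The control cultures lay close together while the palmitate cultures spread on both sides, and the ratios were 0.16, -0.05, -0.21 and -0.28 and the mean -0.10 ± 0.19 (SD, n = 4). Akt2, the isoform most needed for insulin-stimulated glucose uptake, averaged 0.25 ± 0.21 (95% interval 0.00 to 0.49), with 0.17 and -0.11 on its other probes. Slc2a4, which encodes glucose transporter 4, had log2 signals of 7.46, 7.51, 7.53 and 7.62 in palmitate cultures and 7.62, 7.57, 7.63 and 7.63 in control cultures. It was below its control on 4 of 4 arrays, by 0.01 to 0.17, with a mean of -0.08 ± 0.07 (SD, n = 4) and a 95% interval of -0.27 to 0.10, close to the floor of detection. Tbc1d1 and Tbc1d4, the AKT targets that hold transporter 4 vesicles inside the cell, averaged -0.03 and 0.02.

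Gys1, muscle glycogen synthase, had log2 signals of 10.44, 9.85, 9.89 and 9.63 in palmitate cultures, against 10.36, 10.53, 10.18 and 10.14 in control cultures. Replicate 1 ran against the others here, with ratios of 0.08, -0.67, -0.30 and -0.51 and a mean of -0.35 ± 0.32 (SD, n = 4; adjusted p = 0.203 from limma), and a second probe averaged -0.23. Gsk3a, the kinase that inhibits glycogen synthase, showed the same split with the opposite sign: replicate 1 gave -0.20 and replicates 2 to 4 gave 0.38, 0.48 and 0.75, a mean of 0.35 ± 0.40. For both genes palmitate cultures 2 to 4 were beyond every control culture in 1 direction. Palmitate culture 1 lay among the controls for Gys1. For Gsk3a it had a log2 signal of 12.70, below every control (12.78 to 12.93) and so on the opposite side.

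Among the TSC and mTOR genes, 3 of 9 were lower and 0 of 9 higher at an unadjusted p under 0.05, against 13.3% lower and 10.8% higher of all tested genes. Mlst8, a shared subunit of both mTOR complexes, had the lowest p of all members. Its log2 signals were 11.52, 11.17, 11.86 and 11.59 in palmitate cultures, against 12.07, 12.09, 12.09 and 11.94 in control cultures. The groups did not overlap: the highest palmitate culture (11.86) was below the lowest control culture (11.94). The ratios were -0.55, -0.92, -0.23 and -0.35, a mean of -0.51 ± 0.30 (SD, n = 4), a 0.702-fold level with palmitate (adjusted p = 0.127 from limma).

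Rps6kb1, which encodes S6K1, the kinase that mTOR complex 1 activates, had log2 signals of 12.81, 12.87, 13.13 and 13.15 in palmitate cultures, against 13.42, 13.32, 13.35 and 13.34 in control cultures. These groups did not overlap either, and the mean ratio was -0.37 ± 0.20 (SD, n = 4; ratios -0.61, -0.46, -0.22 and -0.19; adjusted p = 0.133 from limma). The other tested probes of Rps6kb1 averaged -0.15 and -0.12, smaller and not lower on every array. The first had ratios of 0.14, -0.30, -0.23 and -0.21, and the second -0.63, 0.08, 0.06 and 0.01. The mean of the second rested on replicate 1 and was 0.05 without it. Tsc2, the GTPase-activating subunit that keeps Rheb off, had log2 signals of 7.38, 7.44, 7.44 and 7.71 in palmitate cultures and 7.83, 7.77, 7.68 and 7.73 in control cultures. Palmitate culture 4 lay among the controls and the others below them, and the mean was -0.26 ± 0.18 (SD, n = 4; ratios -0.45, -0.33, -0.24 and -0.02; adjusted p = 0.192 from limma). Tsc2 was well above background in 4 of 4 cultures of each group, but its signals were, like those of Slc2a4, close to the floor of detection.

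Mtor itself, the kinase at the centre of both complexes, had log2 signals of 9.42, 9.90, 9.95 and 9.62 in palmitate cultures and 9.44, 9.61, 9.44 and 9.50 in control cultures. Palmitate cultures 2, 3 and 4 exceeded every control, palmitate culture 1 did not, and the mean was 0.23 ± 0.23 (SD, n = 4; ratios -0.01, 0.29, 0.51 and 0.11). Rictor, the defining subunit of mTOR complex 2, was the member with the widest distance between replicate 1, at -0.49, and the other arrays, at 0.51, 0.67 and 0.28, and its mean was 0.24 ± 0.51. Rptor, its counterpart in complex 1, averaged -0.06, Deptor, an inhibitor of both complexes, 0.09, Tsc1, the partner of Tsc2, 0.08, and Rheb, the GTPase that switches complex 1 on, 0.06.

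**Figure D3:**
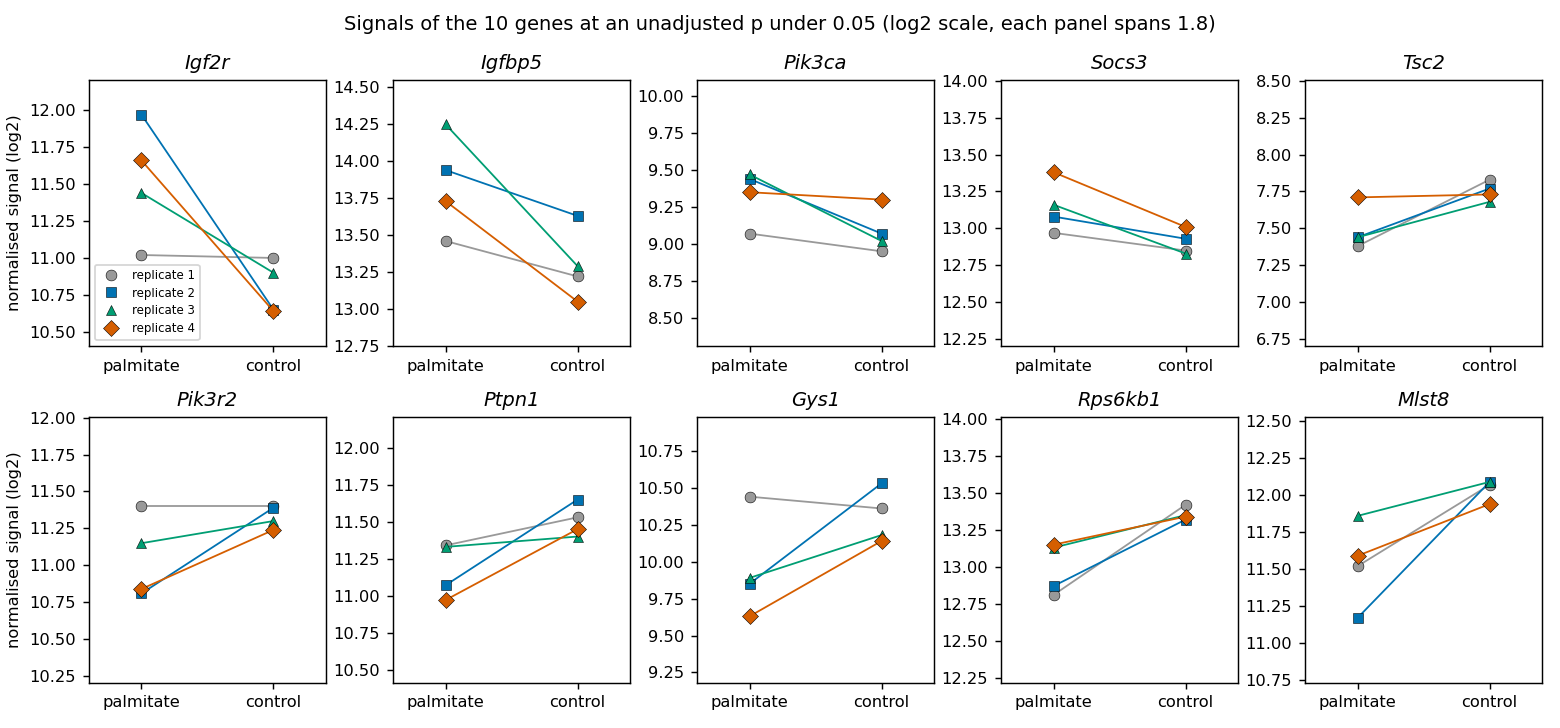
Normalised log2 signal (vertical axis, each panel spanning 1.8) of the 10 genes with an unadjusted p under 0.05, in palmitate (left) and control (right) cultures, with a line joining the cultures of 1 array. The lines run down to control for Igf2r, Igfbp5, Pik3ca and Socs3 and up for the other 6 apart from replicate 1 of Gys1, replicate 1 is flat for Igf2r and Pik3r2, and the markers are spread more widely on the palmitate side for most genes.

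None of the 6 tested AMPK genes reached an unadjusted p under 0.05, which 24.2% of all tested genes did. Prkaa1, the catalytic alpha 1 subunit, had log2 signals of 12.24, 12.38, 11.99 and 12.14 in palmitate cultures and 12.10, 12.21, 12.13 and 12.24 in control cultures. The groups overlapped, and its ratios of 0.14, 0.17, -0.14 and -0.09 averaged 0.02 ± 0.16 (SD, n = 4). Prkaa2, the alpha 2 subunit, averaged -0.11 and was near background, above it in 4 palmitate and 2 control cultures. The beta subunit genes Prkab1 and Prkab2 averaged 0.09 and -0.20, the gamma subunit gene Prkag1 0.04, and Stk11, which encodes LKB1, the kinase that activates AMPK, -0.03. For all 6 genes the 95% interval of the mean lay within a fold of 1.6 in both directions, against 84.9% of all tested genes.

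Of the inhibitors of the insulin signal, the phosphatase gene was lower and the SOCS gene higher at an unadjusted p under 0.05. Ptpn1 encodes PTP1B, which dephosphorylates the insulin receptor, and had log2 signals of 11.34, 11.07, 11.33 and 10.97 in palmitate cultures, against 11.53, 11.65, 11.40 and 11.45 in control cultures. The groups did not overlap, and the mean ratio was -0.33 ± 0.24 (SD, n = 4; ratios -0.19, -0.57, -0.07 and -0.48; adjusted p = 0.17 from limma). A second, dimmer probe of Ptpn1 averaged 0.08. Socs3, an inhibitor induced by cytokines that targets IRS proteins, had log2 signals of 12.97, 13.08, 13.16 and 13.38 in palmitate cultures, against 12.85, 12.93, 12.83 and 13.01 in control cultures. It was higher on 4 of 4 arrays, but palmitate culture 1 lay below control culture 4, and the mean was 0.24 ± 0.13 (SD, n = 4; ratios 0.12, 0.15, 0.33 and 0.38; adjusted p = 0.181 from limma). Prkcd, a protein kinase C isoform that diacylglycerol activates, averaged 0.11 ± 0.39, between -0.34 on replicate 1 and 0.62 on replicate 3.

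The palmitate cultures varied more among themselves than the control cultures did. The SD of the log2 signal over cultures was larger in palmitate than in control for 37 of 42 members (88.1%), with medians of 0.18 and 0.09. This was a property of the arrays as a whole, with a larger SD in palmitate for 83.1% of all tested genes and medians of 0.19 and 0.10. From the processed signals of the scanner software, centred on the median of each channel, the shares were 78.6% of members and 81.7% of all tested genes. The dye goes with the group here too, and its part was not tested.

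Whether the members had a call depended on replicate 1. Without it, 5 of 42 members passed an adjusted p of 0.05 (11.9%), against 18.6% of all tested genes: 4 higher (9.52%), against 8.76%, and 1 lower (2.38%), against 9.84%. Igf2r had a mean log2 ratio of 0.96 over replicates 2 to 4 (adjusted p = 0.00979 from limma), Igfbp5 0.65 (0.0211), Gsk3a 0.54 (0.0176), Rictor 0.49 (0.024) and Gys1 -0.49 (0.0225). Gsk3a and Rictor had not reached an unadjusted p under 0.05 with all 4 arrays. Mlst8 and Rps6kb1, whose ratios on replicate 1 had the same sign as on the others, had adjusted p of 0.0541 and 0.0816 without it. Leaving out replicate 2, 3 or 4 in place of replicate 1 gave 0 members past the adjusted p. With replicate 1 left out the design rests on 3 arrays, and no reason to leave it out is given in the labels.

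The members' ratios on replicate 1 had the same sign as the mean of replicates 2 to 4 for 24 of 42 genes (57.1%), against 53.4% of all tested genes. Across the 42 members, which are not independent replicates, replicates 2, 3 and 4 correlated with each other at 0.58 to 0.76 and with replicate 1 at 0.026 to 0.33. The arrays share probes and dye orientation, so these values describe the arrays and carry no test.

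**Figure D4:**
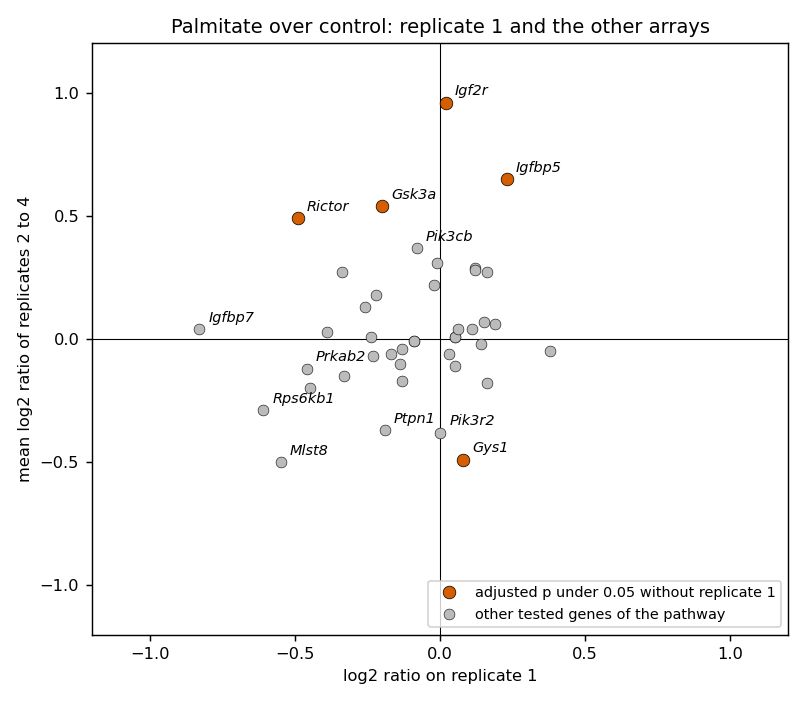
Log2 ratio of palmitate over control on replicate 1 (horizontal axis) against the mean of replicates 2 to 4 (vertical axis) for the 42 tested genes of the pathway, with the 5 genes past an adjusted p of 0.05 without replicate 1 in orange. Gsk3a, Rictor and Gys1 lie in the quadrants of opposite sign, Igf2r lies at 0.02 on the horizontal axis, and Mlst8 and Rps6kb1 lie below 0 on both axes.

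A wider list of 121 other genes of the pathway, of which 14 were off the array or too dim to be tested, had counts near the background too. None passed the adjusted p, 18 were lower at an unadjusted p under 0.05 (16.8% of those tested) and 12 higher (11.2%), against 13.3% and 10.8% of all tested genes, and the median of the mean log2 ratios was -0.03. The lowest p values belonged to Rps6, the ribosomal protein that S6K1 phosphorylates, with a log2 ratio of 0.54 ± 0.17 (SD, n = 4; ratios 0.50, 0.72, 0.61 and 0.33; adjusted p = 0.118 from limma), and to Socs1, an inhibitor of cytokine and insulin receptors, with -0.60 ± 0.24 (SD, n = 4; ratios -0.25, -0.79, -0.66 and -0.71; adjusted p = 0.118 from limma). Rps6 was higher on all 3 of its probes (0.54, 0.56 and 0.85). Gbe1, the glycogen branching enzyme, averaged 0.41 ± 0.16 and Sos2, which links receptors to Ras, 0.39 ± 0.14, both higher on 4 of 4 arrays. Crtc2, a transcriptional coactivator held in the cytoplasm by AMPK family kinases, averaged -0.50 ± 0.29 but -0.06 on its other probe, and Slc2a8, a glucose transporter of intracellular membranes, -0.44 ± 0.24.

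A mean fold of at least 1.6 was reached by 4 of these genes (3.74% of those tested), against 2.44% of all tested genes, and they are named after their values were seen. Igf2bp2, which binds Igf2 and other mRNAs, averaged 1.18 ± 0.84 (SD, n = 4; ratios 0.03, 1.98, 1.17 and 1.56), with 0.07 on a second probe. Gsk3b, the other glycogen synthase kinase 3 gene, averaged -0.92 ± 0.82 (SD, n = 4; 0.27 on replicate 1, -1.47 on replicates 2 and 4, and a value between them on replicate 3), with -0.09 and 0.17 on its other probes. In both genes the large ratio was seen on 1 probe and not on replicate 1. Vamp2, a vesicle protein of glucose transporter 4 delivery, averaged -0.82 ± 0.61 (ratios -1.15, -1.52, -0.26 and -0.36) and Fnip2, a regulator of mTOR complex 1 at lysosomes, 0.69 ± 0.47 (ratios 0.41, 1.34, 0.30 and 0.71). Without replicate 1, 13 of these genes were lower (12.1% of those tested) and 9 higher (8.41%) at an adjusted p under 0.05, against 9.84% and 8.76% of all tested genes. Foxo1, the transcription factor that AKT inactivates, was among the lower ones (-0.63, adjusted p = 0.00712 from limma, and -0.46 with an adjusted p of 0.055 on a second probe), as was Eif4ebp1, a translation inhibitor and target of mTOR complex 1 (-0.57, adjusted p = 0.0241), both also named after their values were seen.

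Where a gene had several probes, they did not always run the same way. Of 13 members with more than 1 tested probe, 6 had the same sign on all of them and 7 did not, and the largest distance between probes of a gene was 0.59 for Pdpk1. The files hold no probe sequences, and which transcript forms each probe reads was not analysed here.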

How the data were processed

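Total RNA (1000 ng per sample) was labelled and hybridised, and the slide was read with Agilent Feature Extraction 10.7.3.1, per the labels. The authors deposited, for each array, the raw median brightness of every spot and of its background (intensity, not corrected or normalized). Beside these stand processed intensities, in which the scanner software used by the authors had subtracted background and adjusted the dyes. A further deposited table gives log2 ratios, which equal log2 of the ratio of the processed intensities, palmitate over control, to within 3e-06.

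Median signals entered normexp background correction (offset 50) and loess dye normalization per array, in limma 3.58.1 (R 4.3.3). Control spots and spots marked as outliers had weight 0, and a probe was the average of its other spots. Tests covered the 24169 of 39429 probes (61.3%) that the scanner software marked as clearly brighter than background, in either channel, on each of the 4 arrays. The test was limma's lmFit and eBayes on the log2 ratios against 0, with Benjamini-Hochberg adjustment over all tested probes. Signals of single channels were taken after loess and Aquantile normalization. Probes were named through RefSeq accessions (26055 named, 13374 unnamed), and a gene was read from its brightest tested probe.

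The cultures of an array are paired by the array, as the ratio is taken within it. The deviations of the paired channels from their group means correlated at 0.071 to 0.48. Only on replicate 4 was the correlation of the palmitate culture highest with the control of its own array. On replicates 1, 2 and 3 it was higher with a control of another array. All members are named, with values on each array for those at an unadjusted p under 0.05, at a mean fold of at least 1.6, or central to a role (Igf2, Insr, Igf1r, Irs1, Akt1, Slc2a4, Mtor and Prkaa1). Of the wider list the 6 lowest p are named. Array values of further genes and probes were chosen after they were seen. The members and lists were chosen with earlier results of these data known. The pipeline was tested on simulated data. Alternatives changed the background correction, dye normalization, filters, test, pairing, variance model, source of the values, probe choice and replicates.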

Additional observations from a re-analysis of the deposited data

Results flagged for a closer look

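Of the 41 tested members with values on all 4 arrays, 3 had 1 array far from the others by Dixon's criterion. The criterion was set at the 95% level, which chance alone passes in about 1 in 20 groups. The share over all tested genes was not computed, so this count has no background beside it. Insr had a log2 ratio of palmitate over control of -0.39 on replicate 1, against 0.01, 0.07 and 0.01 on replicates 2 to 4. Pdpk1 had -0.35 on replicate 3, with 0.05, 0.02 and 0.01 on replicates 1, 2 and 4. The other probes of Pdpk1 gave 0.05 and 0.17 on replicate 3. Stk11 had 0.20 on replicate 3, with -0.09, -0.14 and -0.10 on replicates 1, 2 and 4.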

How the results depend on the processing

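Of 287 values of 17 named genes under 17 alternatives, 259 kept their direction and their side of an adjusted p of 0.05. Another 10 kept their direction and passed it only under the alternative, and 18 changed sign. Of these 18, 7 then passed the adjusted p, all 7 of them without dye normalization (Akt1, Gys1, Igf1r, Insr, Pik3r2, Ptpn1 and Rps6kb1). The cause of the sign changes was not tested. Probes are counted at an adjusted p under 0.05 and a fold of at least 1.6, members at the adjusted p alone. Without dye normalization, where the median of all probes was 0.99, 26 probes were lower and 20322 higher, 38 members were called higher, 0 were lower and 38 higher at an unadjusted p under 0.05 (median of the members 1.10). Akt1 (1.08), Gys1 (0.76), Igf1r (0.99), Insr (0.92), Mlst8 (0.59), Pik3r2 (0.82), Ptpn1 (0.78), Rps6kb1 (0.75), Slc2a4 (0.70) and Tsc2 (0.53) were then above 0, and all but Akt1 and Igf1r were below that median. With median centring, where the median of all probes was 0.18, the counts of members at an unadjusted p under 0.05 were 0 lower and 2 higher. The median of the members was 0.27, and Akt1 (0.27), Igf1r (0.18), Insr (0.10) and Pik3r2 (0.01) were above 0. Members higher at an unadjusted p under 0.05 numbered 2 with a normexp offset of 0, with the processed signals, with the deposited ratios and with a trended robust variance. Probes called numbered 13 higher with the processed signals and with the deposited ratios, and 2 higher with the coefficient of variation kept under 50%. With no replicate block, that is with the cultures unpaired, limma called 11 probes lower and 15 higher. An unpaired t-test, the kind named in the methods, called 2 lower and 1 higher, and neither called a member. Both were run on signals normalised and filtered as described here, not with the software and filters of the study. The counts therefore do not repeat the study's own analysis. Leaving out 1 replicate gave 0 to 753 probes lower and 0 to 555 higher (with the fold limit), 0 to 1 members called lower and 0 to 4 higher, and 2 to 5 members lower and 3 to 8 higher at an unadjusted p under 0.05. The calls came without replicate 1. Under these alternatives the share of all tested genes was computed only for the adjusted p without replicate 1. The other counts of members in this section therefore have no background beside them. Over the settings that left out 1 replicate, Insr ranged from -0.12 to 0.03 and Prkaa1 from -0.03 to 0.07 (-0.02 without replicate 1). As the mean of its probes over all 4 arrays, Insr was 0.03.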
